A study of Mus musculus with 9 samples.

Results

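The secreted serum proteins followed here are 9 genes: the carrier proteins Afp, Alb, Rbp4, Ttr and Trf, the fibrinogen chains Fga, Fgb and Fgg, and the secreted phosphoprotein Spp2. The group was chosen with earlier results of these data known, and its probe sets were then taken by name: every probe set whose single gene symbol in the platform annotation is one of these names was included. That gave 11 of 36899 probe sets, and 9 of the 15965 genes that have a probe set with 1 symbol. Of the 11, 8 lay on array design A, 2 on design B and 1 on design C. The study hybridised total RNA of whole gastrulating mouse embryos (embryonic day 7.5, E7.5) to 9 one-colour Affymetrix arrays. The conditional knockout was a pool of about 50 embryos that lost beta-catenin (Ctnnb1) wherever Cre recombinase was made under the cytokeratin 19 promoter. The first control, called floxed/deleted here, carried 1 floxed and 1 deleted Ctnnb1 allele, and the second, wild type/floxed, carried 1 wild-type and 1 floxed allele. The labels give neither the number of embryos in the control pools nor whether they carried Cre, and with Cre the floxed/deleted pool would have the genotype of the knockout.

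The visceral endoderm is the absorptive epithelium that wraps the embryo before a liver or a circulation exists. Like the later liver, it takes up maternal nutrients and secretes carrier proteins, which move retinol, thyroid hormone, iron and fatty acids. Alpha-fetoprotein, the product of Afp, is its textbook secreted marker in the mouse, and the factors HNF1, HNF4 and FOXA drive serum protein genes in both tissues. Every array pooled whole embryos, so a different share of visceral endoderm and a different amount of RNA per visceral endoderm cell cannot be told apart.

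Each genotype had 1 array per design, and the designs carry different probe sets, so no value below has a replicate, an error or a test. Signals are the deposited intensities, in arbitrary units. For folds, the arrays of a design were first scaled to equal trimmed means, which moved signals by a fraction of a percent, and every signal under the median of all 3 arrays of its design was raised to that median (57.3 on A, 90.0 on B and 80.9 on C). This floor is a rule of the comparison and not a detection limit, and a fold with a side at the floor is written "at least". A probe set is called measured when at least 1 pool lay above the floor. It is called higher or lower in a pool that stood 1.5-fold or more from both others. Ctnnb1 itself gave 1376 in the knockout, 1509 in floxed/deleted embryos and 1773 in wild type/floxed ones, and the position of its probes relative to the deleted part was not known here. Krt19, whose promoter drives Cre, gave 232 in the knockout, 97.6 in floxed/deleted embryos and 119 in wild type/floxed ones on 1 probe set, and its second probe set stayed under the floor in every pool.

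Of the 11 probe sets, 4 were above the floor in all 3 pools (Rbp4, Ttr, Fgg and Spp2), 2 in 2 pools (both of Fga), 3 in the knockout alone (1 of Afp, Trf and Fgb) and 2 in none (the other of Afp, and Alb). In the knockout, Trf and Fgb were higher than both controls by 1.5-fold or more, which is 2 of the 9 measured probe sets, and 0 were lower. Across all measured probe sets of the 3 designs, 7.38% were higher in the knockout by this rule and 5.62% were lower. The floxed/deleted pool had 0 members higher and 1 lower (Fga on design C), where 8.84% and 5.7% of all measured probe sets were so called. The wild type/floxed pool had 0 of either, where 8.21% of all were higher and 5.66% lower. The 3 members seen in the knockout alone had to be higher there, because they passed the floor through that pool only, so these counts carry no weight of their own.

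**Figure D1:**
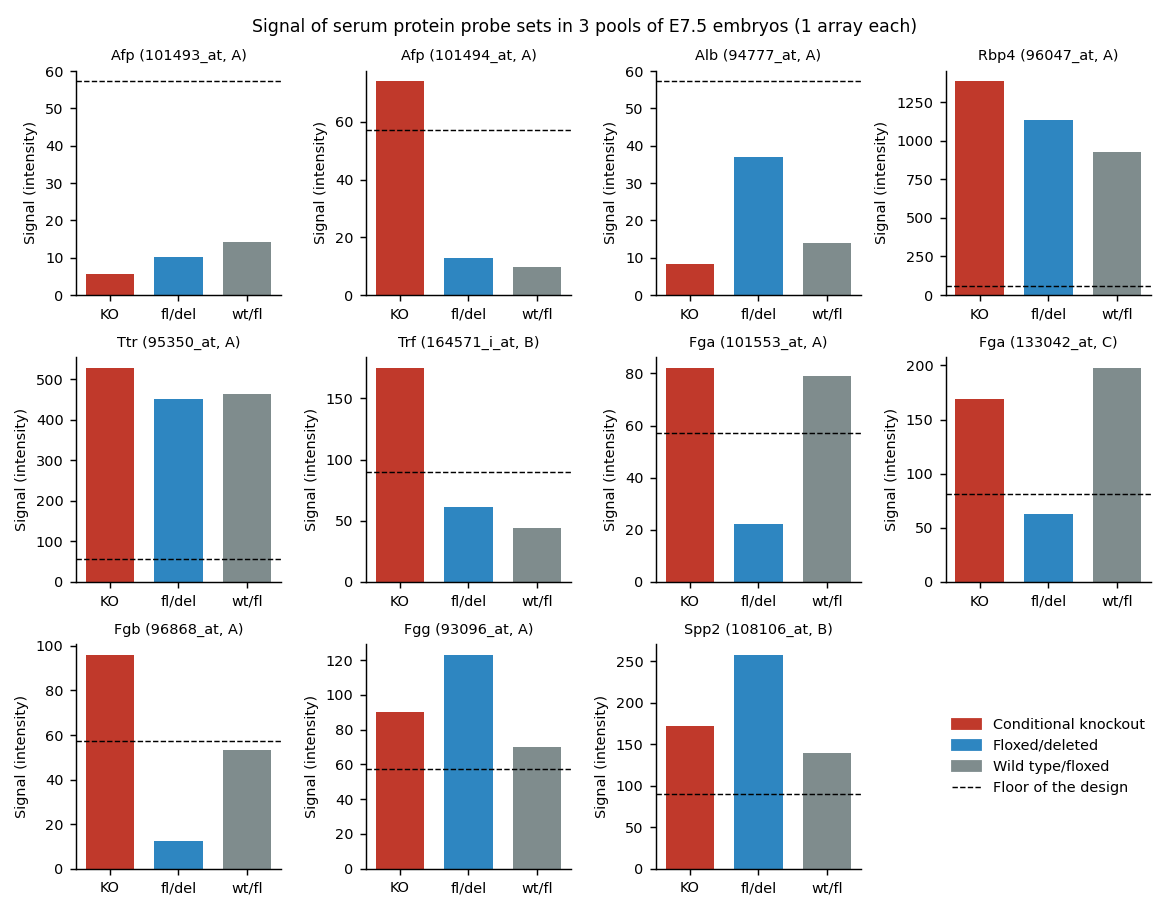
Bars show the deposited signal (intensity, axis from 0, scale differing by panel) of each of the 11 serum protein probe sets in the conditional knockout (KO), floxed/deleted (fl/del) and wild type/floxed (wt/fl) pools, 1 array each, with the design letter in the panel title. Rbp4 and Ttr stand far above the dashed floor in all 3 pools, Trf, Fgb and 1 Afp probe set pass it in the knockout alone, and Alb and the other Afp probe set lie below it throughout.

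Rbp4 encodes the plasma carrier that brings retinol to cells. Its probe set, 96047_at, gave 1384 in the knockout, 1137 in floxed/deleted embryos and 924 in wild type/floxed ones. The knockout was the highest pool, by log2 differences of 0.29 from floxed/deleted (1.22-fold) and 0.58 from wild type/floxed, so it missed the 1.5-fold rule against the nearer control. The controls differed from each other as much as the knockout did from floxed/deleted, with a log2 difference of 0.30 between floxed/deleted and wild type/floxed.

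Ttr encodes transthyretin, which carries thyroid hormone and, bound to the Rbp4 protein, retinol. Probe set 95350_at gave 528 in the knockout, 451 in floxed/deleted embryos and 465 in wild type/floxed ones. The knockout was again highest, by 1.14-fold over the nearer control, and the controls lay within 1.03-fold of each other. Both retinol carriers thus had clear signal in every pool and a modest excess in the knockout. On design A, 32.2% of measured probe sets were highest in the knockout by any amount. The log2 difference between the controls had a standard deviation of 0.44 over all measured probe sets of that design. Stra6, the membrane receptor that takes retinol from the Rbp4 protein, and Lrat, which esterifies retinol, were below the floor in all pools.

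RefSeq gives more than 1 start for Rbp4 (assembly GRCm38.p6), and the upstream one, at chr19:38125272-38125571 on the minus strand, is shown because it alone among the members' windows holds a match to the Tcf/Lef motif, to which beta-catenin's partner factors bind. Each window runs from 250 bases before to 50 bases after an annotated start. Capitals mark a FOXA match (TGTTTAC, here read on the opposite strand as GTAAACA) that begins 241 bases before the start, and a Tcf/Lef match (CTTTGAT, read as ATCAAAG) that begins 30 bases before it.
Rbp4: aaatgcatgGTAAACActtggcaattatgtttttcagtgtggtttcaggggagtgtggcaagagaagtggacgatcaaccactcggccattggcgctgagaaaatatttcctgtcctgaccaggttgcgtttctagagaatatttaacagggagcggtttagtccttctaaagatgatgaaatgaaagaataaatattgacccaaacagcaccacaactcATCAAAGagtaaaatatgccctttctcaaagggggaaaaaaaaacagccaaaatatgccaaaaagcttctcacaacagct
Of all 32851 promoter windows in the table, 3.73% hold the Tcf/Lef letters on either strand and 3.65% the FOXA letters. The match is a description of the letters, not of binding.

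Trf encodes transferrin, which carries iron in plasma. Its single probe set, 164571_i_at on design B, gave 175 in the knockout, 61.5 in floxed/deleted embryos and 43.7 in wild type/floxed ones. Both controls were below the floor, and the knockout was at least 1.94-fold higher. On design B, 6.23% of measured probe sets were higher in the knockout. The suffix of the probe set marks an incomplete choice of probes, and no other probe set had Trf as its only symbol. Of the 629 probe sets of that design above the floor in the knockout alone, 30.2% were at least 1.5-fold above it. The same count was 33.9% of 862 for floxed/deleted and 31.9% of 727 for wild type/floxed.

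Genes that handle the iron brought by transferrin were mixed. The transferrin receptor gene Tfrc gave 726 in the knockout, 753 in floxed/deleted embryos and 811 in wild type/floxed ones, with the knockout lowest by 1.04-fold. Steap3, the ferrireductase that frees iron from transferrin in endosomes, gave 337 in the knockout, 148 in floxed/deleted embryos and 167 in wild type/floxed ones, 2.02-fold higher in the knockout than in the nearer control. Slc40a1, the iron exporter ferroportin, gave 443 in the knockout, 230 in floxed/deleted embryos and 244 in wild type/floxed ones, 1.82-fold higher in the knockout. The ferritin heavy chain gene Fth1 gave 2705 in the knockout, 2695 in floxed/deleted embryos and 2674 in wild type/floxed ones, so the pools lay within a few percent. Tfr2, a second transferrin receptor, was lower in the knockout by 1.475-fold, at 119 in the knockout, 458 in floxed/deleted embryos and 176 in wild type/floxed ones on design C.

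The fibrinogen molecule is built of 3 chains, encoded by Fga (alpha), Fgb (beta) and Fgg (gamma), and thrombin turns it into the fibrin of clots. In assembly GRCm38.p6 the 3 genes lie side by side on chromosome 3, with 0 protein-coding genes between neighbours. Fgb had 95.9 in the knockout, 12.3 in floxed/deleted embryos and 53.3 in wild type/floxed ones on probe set 96868_at. Only the knockout passed the floor, and it was at least 1.68-fold higher than either control. On design A, 3.31% of measured probe sets were higher in the knockout. Of the 360 probe sets there above the floor in the knockout alone, 20.6% reached 1.5-fold, against 22.9% of 594 in floxed/deleted and 15.7% of 421 in wild type/floxed. The raw signal of wild type/floxed was just under the floor, and the deposited knockout signal was 180% of it.

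Fga had 82.0 in the knockout, 22.2 in floxed/deleted embryos and 79.1 in wild type/floxed ones on probe set 101553_at of design A. On probe set 133042_at of design C it had 169 in the knockout, 62.8 in floxed/deleted embryos and 198 in wild type/floxed ones. On both designs the floxed/deleted pool was below the floor while the other pools were above it and close together. Floxed/deleted was at least 1.38-fold lower than the nearer of the other pools on A and at least 2.09-fold lower on C, where 8.79% of measured probe sets were lower in that pool by the 1.5-fold rule. The knockout was 1.04-fold above wild type/floxed on A and at 0.857 times wild type/floxed on C. The arrays of the designs are separate hybridisations, but whether they shared a labelled sample is not stated.

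Fgg was above the main floor in every pool, but was not measured with the floor at the 70th percentile. Probe set 93096_at gave 90.0 in the knockout, 123 in floxed/deleted embryos and 70.2 in wild type/floxed ones, all above the floor. The knockout lay between the controls, and floxed/deleted was 1.75-fold above wild type/floxed. Floxed/deleted was thus the highest pool for Fgg and the lowest for Fga, while for Fgb no order of the controls can be given, because both were under the floor.

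The promoter windows of the 3 neighbours are shown because these chains of 1 protein differed in which pool was highest or lowest. They are from RefSeq on GRCm38.p6: Fga at chr3:83025903-83026202 on the plus strand, Fgb at chr3:83049814-83050113 on the minus strand and Fgg at chr3:83007474-83007773 on the plus strand. Capitals mark the core letters of the HNF1 motif (GTTAAT, read on the opposite strand as ATTAAC), which begins 43 bases before the start in Fga and 29 before it in Fgb.
Fga: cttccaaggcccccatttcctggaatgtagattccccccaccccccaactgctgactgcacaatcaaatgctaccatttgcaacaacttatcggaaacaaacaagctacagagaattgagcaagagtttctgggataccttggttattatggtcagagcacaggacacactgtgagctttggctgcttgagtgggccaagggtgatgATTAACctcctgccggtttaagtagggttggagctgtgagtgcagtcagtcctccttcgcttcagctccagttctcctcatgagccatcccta
Fgb: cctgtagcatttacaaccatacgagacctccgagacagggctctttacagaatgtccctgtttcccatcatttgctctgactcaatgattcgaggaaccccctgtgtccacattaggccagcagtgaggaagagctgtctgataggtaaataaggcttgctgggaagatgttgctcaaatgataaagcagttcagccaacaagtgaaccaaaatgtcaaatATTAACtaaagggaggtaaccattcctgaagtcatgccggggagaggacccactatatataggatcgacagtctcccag
Fgg: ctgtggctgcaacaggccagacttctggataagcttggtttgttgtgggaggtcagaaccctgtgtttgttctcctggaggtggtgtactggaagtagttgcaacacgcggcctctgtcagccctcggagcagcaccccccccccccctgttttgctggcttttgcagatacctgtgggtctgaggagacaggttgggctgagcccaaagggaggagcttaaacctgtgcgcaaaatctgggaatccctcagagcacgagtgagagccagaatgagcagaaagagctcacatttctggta
The same letters occur in the windows of Alb, from 32 bases before the start, and Afp, from 105 bases before it, which makes 4 of the 8 windows searched for 7 members. Of all promoter windows, 7.1% hold them. The Fgg window held none of the 6 motifs searched, which says only that those letters are not in it. The others were FOXA, Tcf/Lef, the GATA motif AGATAA, the HNF4 motif CAAAGTCC and the TATA box TATAAA. Both strands were read, and no matches overlapped in the windows shown. The HNF4 letters occurred in 0 of the 8 windows, against 1.42% of all promoters. The GATA letters occurred in 1 (Spp2), against 11.2%, and the TATA box in 2 (Afp and the second Rbp4 window), against 13.6%.

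Afp, the major serum protein of the yolk sac, and its neighbour and relative Alb gave little signal. Afp probe set 101494_at had 74 in the knockout, 12.8 in floxed/deleted embryos and 9.7 in wild type/floxed ones. The knockout alone was above the floor, by at least 1.29-fold, under the 1.5-fold rule. Probe set 101493_at of the same gene had 5.7 in the knockout, 10.3 in floxed/deleted embryos and 14.2 in wild type/floxed ones, all below the floor, so no order of the pools is read from it. Alb, which encodes albumin, had 8.2 in the knockout, 37.1 in floxed/deleted embryos and 13.9 in wild type/floxed ones, all below the floor. The label of a visceral endoderm set was therefore not borne out by its textbook marker, since both Afp probe sets lay below the median of the design in both controls. Amn and Cubn, which encode the subunits of the cubam receptor in the nutrient uptake machinery of the same epithelium, had strong signal in those pools. Amn gave 12923 in the knockout, 6390 in floxed/deleted embryos and 8806 in wild type/floxed ones. Cubn gave 3458 in the knockout, 1656 in floxed/deleted embryos and 2308 in wild type/floxed ones. Lrp2 of the same machinery was weaker, at 355 in floxed/deleted embryos and 347 in wild type/floxed ones. Some other markers of this epithelium were under the floor in a control pool. Dpp4 gave 104 in floxed/deleted embryos and 21.7 in wild type/floxed ones, and S100g gave 43.5 and 73.8. Whether the Afp probe sets respond to their transcript was not tested.

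Spp2, a secreted phosphoprotein made in liver and found in bone matrix, gave 172 in the knockout, 258 in floxed/deleted embryos and 139 in wild type/floxed ones on probe set 108106_at. All were above the floor, and the knockout lay between the controls. Floxed/deleted was highest, 1.499-fold above the knockout and 1.85-fold above wild type/floxed.

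**Figure D2:**
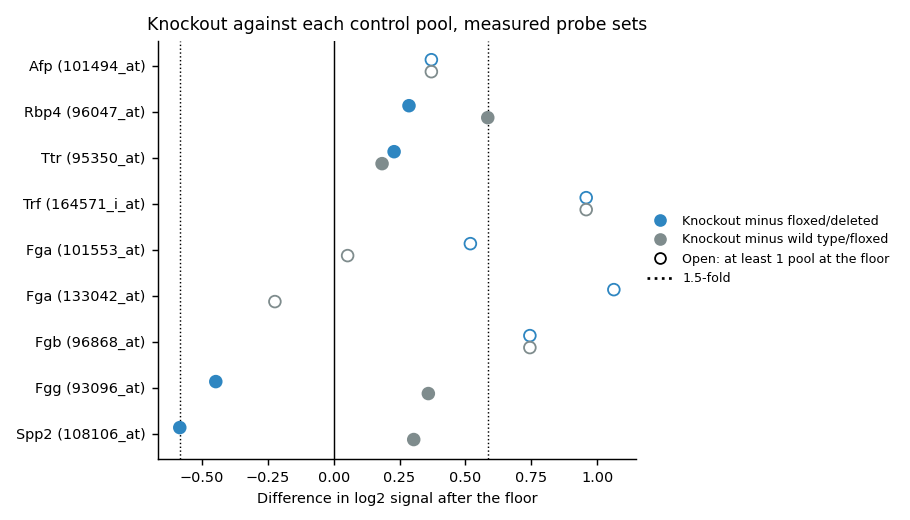
Points show the log2 signal of the knockout minus floxed/deleted (blue) and minus wild type/floxed (grey) for the 9 measured probe sets, after the floor, with dotted lines at 1.5-fold. Open points have at least 1 of the 3 pools at the floor. Trf (0.96) and Fgb (0.74) lie to the right of the line against both controls with open points, while Fgg, Spp2 and Fga on design C fall on opposite sides of 0 for the 2 controls.

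Between the controls, floxed/deleted was at least 1.5-fold above wild type/floxed for Fgg and Spp2, and at least 1.5-fold below it for Fga on design C. That is 2 and 1 of 9, where 15.9% and 15.2% of all measured probe sets were so. For Afp, Trf and Fgb both controls were at the floor, so no fold between them is given. With the brightest probe set standing for a gene, the median log2 difference of the knockout from the mean of both controls was 0.40 over the 8 measured members, beside -0.02 over all 12443 measured genes. Of the 8, 5 were higher in the knockout than in both controls by any amount and 0 were lower than both. Across all measured genes 33.5% were higher and 26.0% lower by this count. Afp, Trf and Fgb could only be higher, having passed the floor through the knockout alone. The median between the controls was 0 for the members and 0 for all genes. The same 3 members raise the first of these medians by construction.

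A wider list of other serum proteins was not uniformly higher. Of 59 listed, 54 were on the arrays and 33 were measured. In the knockout 5 were higher and 0 lower, beside 6.5% and 5.67% of all genes. These were 4 apolipoproteins, Apoa1 (2.19-fold), Apom (2.07-fold), Apoa4 (1.91-fold) and Apoc2 (1.77-fold), and the complement gene C4b (at least 1.86-fold). Of Apoc2, which activates lipoprotein lipase, the signals were 2858 in the knockout, 1490 in floxed/deleted embryos and 1612 in wild type/floxed ones. C4b had 150.4 in the knockout, 18.6 in floxed/deleted embryos and 20.0 in wild type/floxed ones on design C. C4b was above the floor in the knockout alone, so it could only be higher there. The second probe set of Apom lay below the floor in all pools. For floxed/deleted the same count was 2 higher and 0 lower, where 929 and 688 of all 12443 measured genes were so. For wild type/floxed it was 4 higher and 3 lower, where 828 and 692 of the 12443 were so. The list median was 0.13 in the knockout.

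Genes of the same list that act with fibrinogen in clotting were picked out after their values were seen, and those given here did not pass 1.5-fold in the knockout. Prothrombin (F2), whose active form cleaves fibrinogen, gave 71.7 in the knockout, 28.6 in floxed/deleted embryos and 56.5 in wild type/floxed ones, at least 1.25-fold higher in the knockout. Serpinc1, which encodes antithrombin, gave 75.9 in the knockout, 53.9 in floxed/deleted embryos and 11.6 in wild type/floxed ones, at least 1.33-fold higher in the knockout. F10, a factor of the common pathway, gave 212 in the knockout, 301 in floxed/deleted embryos and 332 in wild type/floxed ones, 1.42-fold lower in the knockout. F7, which starts the tissue factor pathway, gave 268 in the knockout, 336 in floxed/deleted embryos and 180 in wild type/floxed ones, with the knockout between the controls. The plasminogen gene Plg, whose product dissolves fibrin, gave 73.3 in the knockout, 309 in floxed/deleted embryos and 82.6 in wild type/floxed ones, with floxed/deleted apart from the others. Serpinf2, the inhibitor of plasmin, gave 678 in the knockout, 473 in floxed/deleted embryos and 135 in wild type/floxed ones on design C, 1.43-fold higher in the knockout than in floxed/deleted. The blood clotting factors F5, F9, F12 and F13b were below the floor in all pools, as were the albumin relative Afm and the inhibitor family members Itih1, Itih2, Itih3 and Itih4.

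Among partners, receptors and uptake genes, 16 of 21 on the arrays were measured, and 3 were higher in the knockout and 0 lower, beside the same 6.5% and 5.67% of all genes. These were Steap3, Slc40a1 and Dab2, the endocytic adaptor of megalin and cubilin, which gave 836 in the knockout, 444 in floxed/deleted embryos and 535 in wild type/floxed ones (1.56-fold). The 3 other Dab2 probe sets were higher in the knockout by a log2 difference of 0.29 to 0.49 from the nearer control. Cubn at 1.499-fold and Amn at 1.47-fold were just under the rule. Lrp2 (megalin) gave 322 in the knockout, 355 in floxed/deleted embryos and 347 in wild type/floxed ones, lower in the knockout by 1.07-fold. The list median was 0.11.

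Of the transcription regulators of serum protein genes, 15 of 23 on the arrays were measured, with 4 higher in the knockout and 0 lower (6.5% and 5.67% of all genes), and a median of 0.32. Zbtb20, a repressor of Afp in the mouse liver, gave 367 in the knockout, 149 in floxed/deleted embryos and 111 in wild type/floxed ones on design C (2.46-fold). Of its 6 other probe sets 1 was above the floor in all pools, with 127 in the knockout, 210 in floxed/deleted embryos and 139 in wild type/floxed ones. The bile acid receptor gene Nr1h4 was at least 1.59-fold higher (91.1 in the knockout, 54.2 in floxed/deleted embryos and 54.1 in wild type/floxed ones). Nr1h4 was above the floor in the knockout alone, so it could only be higher there. The Tcf genes Tcf7l1 and Tcf7l2 were 1.87-fold and 1.79-fold higher than the nearer control. The second Tcf7l1 probe set missed the rule, with a log2 difference of 0.45 from the nearer control. Another Tcf7l2 probe set was higher in the knockout by a log2 difference of 0.80 from the nearer control. A further Tcf7l2 probe set was below the floor in all pools. Hnf4a lay between the controls at 422 in the knockout, 380 in floxed/deleted embryos and 469 in wild type/floxed ones. Foxa2 gave 141 in the knockout, 33.8 in floxed/deleted embryos and 122 in wild type/floxed ones. Zhx2, which represses Afp in the adult mouse liver, was below the floor throughout.

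**Figure D3:**
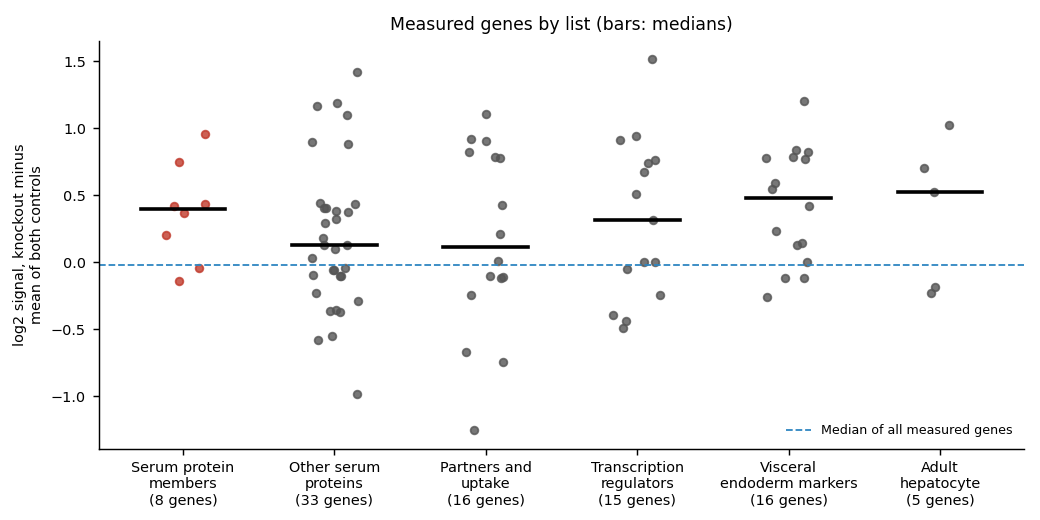
Each point is 1 measured gene, by its brightest probe set, at its log2 signal in the knockout minus the mean of both controls, with a black bar at the median of the list and a dashed line at the median of all measured genes (-0.02). Medians were 0.40 for the members, 0.13 for other serum proteins, 0.11 for partners and uptake, 0.32 for regulators, 0.48 for visceral endoderm markers and 0.53 for 5 adult hepatocyte genes. Afp, Trf and Fgb, above the floor in the knockout alone, raise the members' median by construction. The lists share genes. Cubn, Lrp2, Amn and Dab2 are among both uptake genes and visceral endoderm markers, and Hnf4a is among both regulators and visceral endoderm markers.

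Most visceral endoderm markers that are not secreted had their highest signal in the knockout, and few passed 1.5-fold. All 16 on the arrays of 17 listed were measured, 11 were higher in the knockout than in both controls by any amount and 1 was lower (33.5% and 26.0% of all genes), and 3 were higher by 1.5-fold (Rhox5, Dab2 and Slc39a4, where 6.5% of all genes were). The 2 other Slc39a4 probe sets, both above the floor in all pools, missed the rule, with log2 differences of 0.04 and 0.18 from the nearer control. The summed signal of the marker list was 13460 in the knockout, 8491 in floxed/deleted embryos and 9091 in wild type/floxed ones on design A. On B it was 12529 in the knockout, 7404 in floxed/deleted embryos and 8195 in wild type/floxed ones, and on C 18092 in the knockout, 9574 in floxed/deleted embryos and 11745 in wild type/floxed ones. Single bright probe sets made up much of the sums on B and C. On C, that of Amn alone gave 12923 in the knockout, 6390 in floxed/deleted embryos and 8806 in wild type/floxed ones. On B, that of Cldn6 gave 5702 in the knockout, 3513 in floxed/deleted embryos and 4106 in wild type/floxed ones. The part of the marker list's shift in the members' values was not tested. For RNA quality, the beta-actin control probe sets had a 5′ over 3′ signal of 0.570 in the knockout, 0.655 in floxed/deleted embryos and 0.696 in wild type/floxed ones on A. On B this ratio was 0.607 in the knockout, 0.685 in floxed/deleted embryos and 0.730 in wild type/floxed ones, and on C 0.613 in the knockout, 0.698 in floxed/deleted embryos and 0.681 in wild type/floxed ones. The Gapdh control probe sets did not have the knockout lowest on any design, with 1.09 in the knockout, 1.07 in floxed/deleted embryos and 1.15 in wild type/floxed ones on A. On B the Gapdh ratio was 0.919 in the knockout, 0.900 in floxed/deleted embryos and 1.02 in wild type/floxed ones, and on C 0.878 in the knockout, 0.912 in floxed/deleted embryos and 0.825 in wild type/floxed ones. The part of RNA quality in the members' values was not tested either.

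Markers of other cell types were mixed in level, and their part in the members' values was not tested. Of 15 adult hepatocyte genes on the arrays, 10 were below the floor in all pools, Cyp3a11, Cyp2c29 and Tat among them. The summed signal of the list on design A was 506 in the knockout, 707 in floxed/deleted embryos and 669 in wild type/floxed ones. On C, which held only the probe set of Tdo2, it was 342 in the knockout, 112 in floxed/deleted embryos and 253 in wild type/floxed ones, and the 5 measured genes had a median of 0.53. Maternal decidua genes summed to 718 in the knockout, 596 in floxed/deleted embryos and 433 in wild type/floxed ones on A. On B they summed to 364 in the knockout, 440 in floxed/deleted embryos and 435 in wild type/floxed ones, and on C to 628 in the knockout, 262 in floxed/deleted embryos and 914 in wild type/floxed ones. Of the 8 measured decidua genes 1 (Des) was higher in the knockout. Of 8 measured genes of adult red cells and leucocytes, 2 were higher (C1qb and Laptm5), and their list summed to 673 in the knockout, 655 in floxed/deleted embryos and 556 in wild type/floxed ones on A and to 885 in the knockout, 621 in floxed/deleted embryos and 584 in wild type/floxed ones on C. The second C1qb probe set was below the floor in all pools. Of 5 measured primitive erythroid genes 0 passed 1.5-fold in either direction. Parietal endoderm genes summed to 3334 in the knockout, 3185 in floxed/deleted embryos and 3446 in wild type/floxed ones on A. On B they summed to 333 in the knockout, 164 in floxed/deleted embryos and 124 in wild type/floxed ones. On C the sums were 1300 in the knockout, 511 in floxed/deleted embryos and 961 in wild type/floxed ones. Of 10 measured parietal endoderm genes 2 were higher (Sparc and Pga5) and 1 lower (Fst). Of 8 definitive endoderm genes 1 was higher (Nepn) and 1 lower (Pyy). Across all measured genes 6.5% were higher in the knockout by the 1.5-fold rule and 5.67% lower. Des, C1qb and Nepn were above the floor in the knockout alone, so they could only be higher there.

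**Figure D4:**
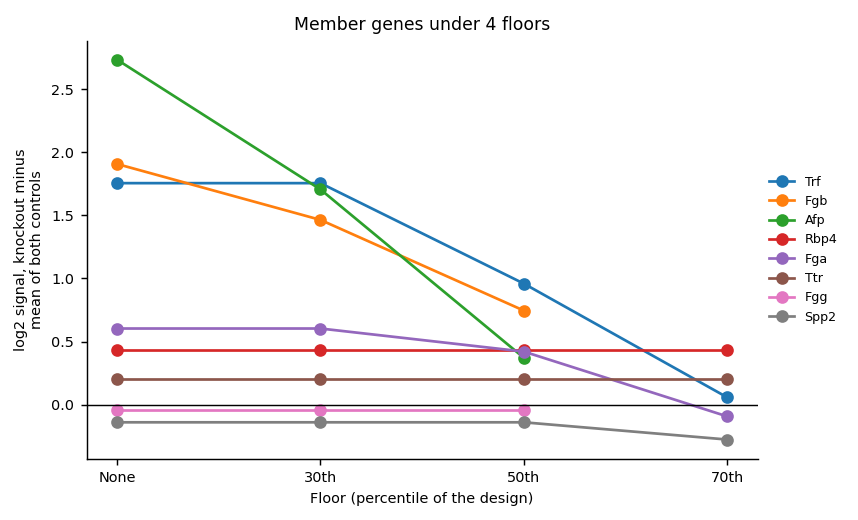
Lines follow the log2 signal of the knockout minus the mean of both controls for each member gene with no floor and with floors at the 30th, 50th and 70th percentile of the design, a missing point meaning that no pool passed the floor. Rbp4 and Ttr are flat at 0.44 and 0.21, whereas Afp ranges from 0.37 to 2.73, Fgb from 0.74 to 1.91 and Trf from 0.06 to 1.75.

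How far the weak members differed depended on the floor. Trf stood at a log2 difference of 0.96, at 1.75 with the floor at the 30th percentile and at 0.06 with it at the 70th. Fgb stood at 0.74, at 1.46 with the lower floor, and was not measured with the higher one. Afp stood at 0.37 and at 1.70 with the lower floor, and was not measured with the higher one. Fgg stood at -0.04 with the main and the lower floor, and was not measured with the higher one either. Rbp4, at 0.44, and Ttr, at 0.21, were above every floor tried, so their values did not depend on it.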

How the data were processed

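Total RNA of 3 embryo pools was measured on 9 Affymetrix arrays, 1 per genotype and design. The deposited values are intensity on a linear scale, 1 per probe set. The sources used here do not name the method that made them. The authors had already scaled the arrays, since the mean without the lowest and highest 2% was 149.7 to 150.0 on each. The experiment sheet of all 9 arrays names the design of its table.

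Within a design, arrays were scaled to equal trimmed means, signals were raised to the pooled median, and log2 was taken (Python 3.11.15, pandas 2.3.3). Of 36899 probe sets 24542 were measured. Probe sets were named from the platform annotation, where 29197 had 1 symbol, 724 several and 6978 none. No test was run, because each group is 1 pool per design, and the number of arrays limits the precision. Named genes are the members, Ctnnb1, Krt19 and up to 6 genes per list and direction past 1.5-fold. Further genes named from the lists (those near the rule, between the controls or below the floor) were chosen after their values were seen. The members and lists were chosen with earlier results of these data known. Alternatives changed the scaling, floor, controls, probe sets, threshold and designs. Promoter windows came from RefSeq (GRCm38.p6), for 7 members.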

Additional observations from a re-analysis of the deposited data

How the results depend on the processing

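Equal medians, quantile normalization, the floor at the 30th percentile, no floor and either control alone gave 2 or 3 probe sets higher in the knockout. The count for probe sets was 0 with the floor at the 70th percentile and 0 with a 2-fold threshold. It was 1 without probe sets whose names carry a suffix letter (f, r, s, g or i), where Trf drops out. It was 1 on design A alone, where Trf has no probe set. The count for genes was 0, 0, 1 and 1 under the same settings. With no floor, 2 probe sets were lower, those of Alb and 1 of Afp, whose signals were all below the main floor. The median shift of the members was 0.057 with the floor at the 70th percentile, where 5 genes were measured, and was 0.33 to 0.46 under the other settings. The median between the controls was 0.30 with the floor at the 30th percentile and 0.40 with none. Afp joined the higher genes with the lower floor or none, Fga did so with floxed/deleted as the sole control and Rbp4 with wild type/floxed as the sole control. Fga ranged from -0.22 to 1.06, Fgg from -0.45 to 0.36 and Spp2 from -0.58 to 0.30. Rbp4 (0.29 to 0.58) and Ttr (0.17 to 0.30) were above 0 under every setting in which they were computed. No paired analysis was possible because each genotype had 1 pool per design.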

Other observations

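Fcgrt, which encodes the neonatal Fc receptor that also recycles albumin, gave 368 in the knockout, 94.6 in floxed/deleted embryos and 401 in wild type/floxed ones on design C. Floxed/deleted was its lowest pool, and this gene was picked out after its values were seen. On design C, 8.79% of measured probe sets were at least 1.5-fold lower in floxed/deleted than in both other pools. The Fcgrt values rest on 1 array per pool.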
